A study of Rattus norvegicus with 24 samples.

Results

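The 9 genes described here encode synaptic adhesion proteins: the neurexins Nrxn2 and Nrxn3, the neuroligins Nlgn1, Nlgn2 and Nlgn3, and the leucine-rich repeat transmembrane proteins Lrrtm1, Lrrtm2, Lrrtm3 and Lrrtm4. They were selected by gene name, with no limit on a measured value, and they are 9 of the 32545 genes in the expression table. Earlier results of these data were known when they were chosen, so the choice was not blind to the data. Their RNA was measured in the nucleus accumbens (NAc) of adult male Sprague Dawley rats, 8 weeks old on arrival, in 24 libraries that fall into 6 groups of 4. In the injection experiment rats received 5 intraperitoneal injections of saline or of 250 µg/kg lipopolysaccharide (LPS, a bacterial cell wall component that provokes inflammation) over a period of weeks, and then saline or heroin for 5 days in doses escalating from 1 to 5 mg/kg. This gave the control group Saline-Saline and the treated groups Saline-Heroin, LPS-Saline and LPS-Heroin. In the self-administration (SA) experiment rats with a jugular catheter took saline (Saline-SA) or heroin at 0.075 mg/kg per infusion (Heroin-SA) for 6 h a day in 10 daily sessions. No rat carried a transgene. Rats of the injection experiment were pair-housed on a normal light cycle. After the last injection they were placed briefly in a locomotor chamber and were killed within an hour of the end of that test. Rats of the SA experiment lived singly on a reversed cycle and were killed directly after the last session, and both SA groups had undergone surgery. Route, surgery, housing, light cycle, locomotor test, operant sessions, time of death and experiment therefore cannot be told apart in any comparison across the experiments.

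Neurexins sit in the presynaptic membrane and bind partners across the synaptic cleft. Neuroligins and LRRTM proteins are such partners in the postsynaptic membrane, and the pairs align transmitter release with receptors. Neuroligin 1 is known mainly from excitatory synapses, neuroligin 2 from inhibitory synapses, and neuroligin 3 from both. LRRTM proteins are known from excitatory synapses, where LRRTM2 binds neurexins and helps to hold AMPA receptors. The NAc consists largely of inhibitory medium spiny neurons that receive excitatory input from cortex, amygdala, hippocampus and thalamus and dopamine from the midbrain.

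The libraries held between 12312878 and 18850240 reads on genes. Values are FPKM (fragments per kilobase of gene model and of library size), a scale on which genes of different length can be set side by side. Across libraries the members rested on between 237 reads (Nlgn1) and 8082 reads (Nrxn2). The tissue label was checked against 12 markers of striatal medium spiny neurons. All of them were detected in every library, and Drd1, the D1 dopamine receptor, lay between 41.1 and 103 FPKM in the 24 libraries. In bulk tissue, fewer cells of a type and less RNA per cell cannot be told apart.

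On rn6 the members lie on 8 chromosomes, with Lrrtm1 and Lrrtm4 sharing chromosome 4. Nrxn2 spans chr1:221801524-221908045 and Nrxn3 chr6:113898420-114067055, both on the plus strand. Nlgn1 spans chr2:111059105-111065413 and Nlgn2 chr10:56431573-56444847, both on the minus strand, and Nlgn3 spans chrX:71199491-71222732 on the plus strand. Lrrtm1 spans chr4:108301129-108316373, Lrrtm3 chr20:25990304-26163656 and Lrrtm4 chr4:110699557-110704822 on the plus strand, and Lrrtm2 spans chr18:28012877-28017925 on the minus strand. Some models are short against what these genes are known to encode, with 1827 bases for Nlgn1 and 1293 bases for Nrxn3, so their FPKM is a value for the annotated piece. Gene values cannot separate the long alpha from the short beta neurexins or splice forms. Lrrtm2 lies inside Ctnna1, which runs on the other strand, Nlgn3 overlaps another annotated gene on its own strand, and Nrxn2 and Nrxn3 each hold a 5S rRNA model. Whether reads were counted by strand is not stated, so the values of Lrrtm2, Nrxn2 and Nrxn3 carry that uncertainty. The Nlgn3 overlap, on the same strand, remains under either setting.

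RefSeq promoter sequences (build GRCr8, which is not the build of the expression table) were held for 6 of the 9 members: Nlgn1, Nlgn2, Nlgn3, Lrrtm2, Lrrtm3 and Lrrtm4. The 250 bases before the start are shown for the 3 members with the lowest unadjusted p in the comparison of the saline groups of both experiments, Lrrtm2, Nlgn3 and Nlgn1, so that their sequences can be compared. Capitals mark a cAMP response element (CRE), letters TGACGTCA, the site known to be bound by CREB. Lrrtm2 was read at chr18:27096968-27097217 on the minus strand, Nlgn3 at chrX:70469228-70469477 on the plus strand and Nlgn1 at chr2:110930677-110930926 on the minus strand.
Lrrtm2: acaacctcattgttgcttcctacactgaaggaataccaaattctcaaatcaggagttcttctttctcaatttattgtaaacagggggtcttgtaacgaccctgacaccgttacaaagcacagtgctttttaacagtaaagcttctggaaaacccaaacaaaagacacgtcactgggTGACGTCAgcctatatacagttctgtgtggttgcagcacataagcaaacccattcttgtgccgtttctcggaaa
Nlgn3: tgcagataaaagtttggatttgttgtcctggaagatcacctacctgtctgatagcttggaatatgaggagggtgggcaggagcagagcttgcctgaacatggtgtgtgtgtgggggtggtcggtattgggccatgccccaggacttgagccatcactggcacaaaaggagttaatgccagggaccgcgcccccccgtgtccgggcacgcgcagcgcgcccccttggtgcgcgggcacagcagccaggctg
Nlgn1: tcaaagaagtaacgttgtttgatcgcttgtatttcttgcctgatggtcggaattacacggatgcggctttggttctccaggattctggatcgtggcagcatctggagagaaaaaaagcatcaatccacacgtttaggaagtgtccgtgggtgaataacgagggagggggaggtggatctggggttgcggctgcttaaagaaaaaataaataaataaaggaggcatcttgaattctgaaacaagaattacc
The Lrrtm2 window held a full CRE whose first base lies at position -74 from the start, and the other 5 windows held none. Lrrtm4 had an AP-1 motif (letters TGANTCA, both strands searched) at -85, and none of the 6 windows held the TATA motif TATAAA. Of all 33469 rat promoter windows of this length, 1.59% held the CRE, 6.34% the AP-1 motif and 12.9% the TATA motif. The windows of Nlgn1, Lrrtm2 and Lrrtm3 had a GC content of 44.4%, 42.4% and 44.8%, against 60.0% for Nlgn3 and 69.2% for Nlgn2. A match of letters is a description and shows no binding.

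Nrxn2 and Nlgn2 were the most abundant members, with means over all 24 libraries of 59.8 ± 5.85 and 57.8 ± 2.82 FPKM (SD). Nrxn3 followed at 39.9 ± 4.77 FPKM and Nlgn3 at 33.3 ± 3.8 FPKM. The ranges of Nrxn2 and Nlgn2 overlapped widely, so their order is not resolved. Among the LRRTM genes Lrrtm1 was highest at 21.1 ± 3.13 FPKM, and Lrrtm2 averaged 14.6 ± 3.09 FPKM. Nlgn1, at 14.2 ± 2.97 FPKM, was level with Lrrtm2. The places of Nlgn1 and Nrxn3 in this order depend on their short gene models. Lrrtm3 (9.88 ± 1.48 FPKM) and Lrrtm4 (8.82 ± 1.05 FPKM) were lowest and overlapped each other. Nlgn2, the neuroligin of inhibitory synapses, was the steadiest, with coefficients of variation between 2.59% and 6.99% within groups. Nlgn1 varied more, by 7.80% to 26.5%.

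**Figure D1:**
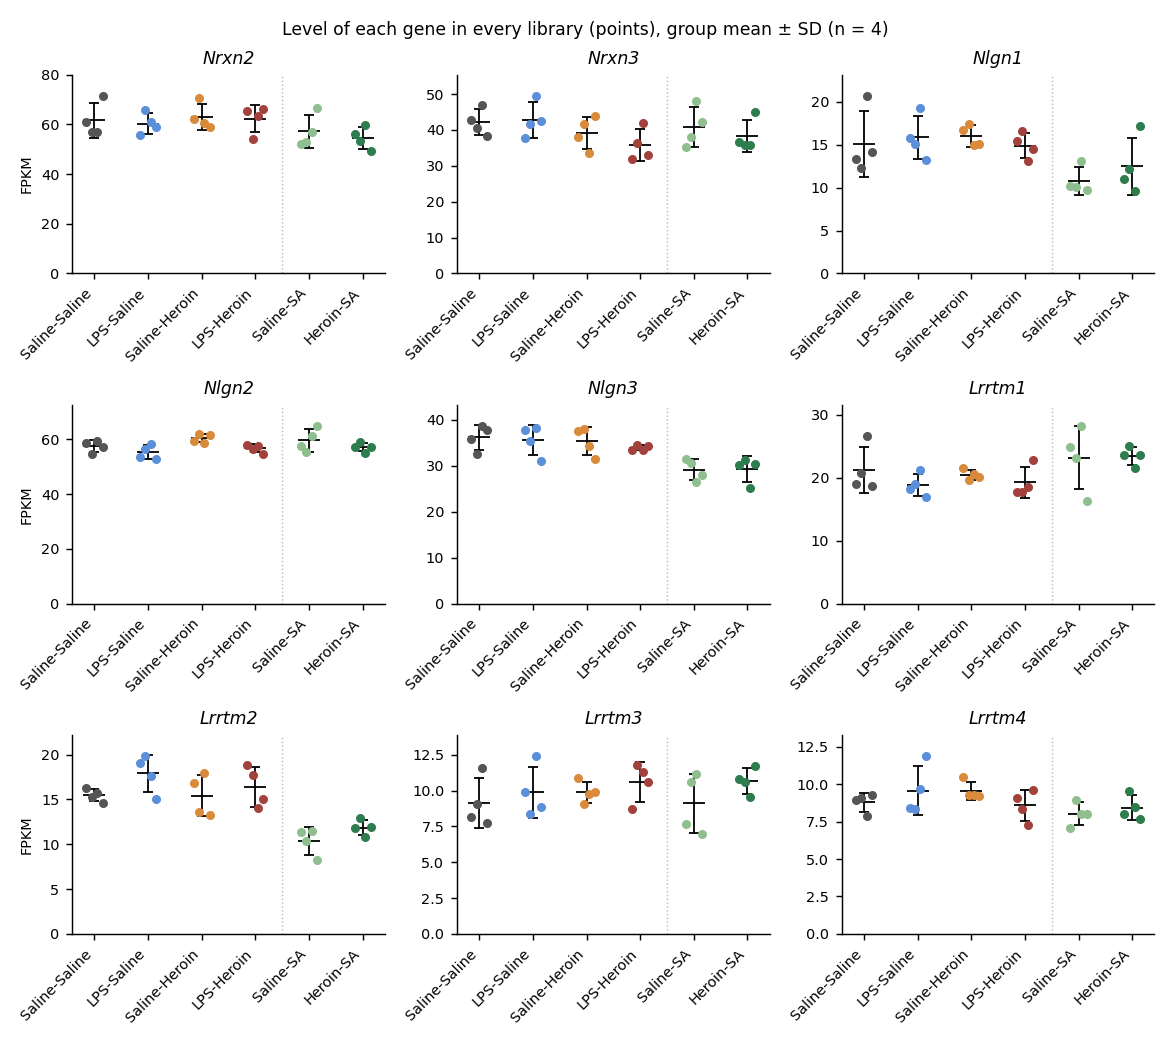
FPKM (linear axes from 0) of each of the 9 genes in the 24 libraries, by group; points are libraries, and bars give the group mean ± SD of 4. The dotted line separates the injection from the self-administration experiment: the Lrrtm2 points to its right lie between 8.20 and 12.9 FPKM, all under the lowest injected rat at 13.3 FPKM. The share of all genes separated in this way was not counted.

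The first question of the study was what LPS, heroin and the 2 in sequence change against Saline-Saline. No member passed the limits that the study set for its pattern and overlap analyses, an unadjusted p under 0.05 together with a change of 1.3-fold or more in either direction. In LPS-Saline against Saline-Saline 0 of 9 members passed, where 2.37% of 15119 genes did. Saline-Heroin against Saline-Saline gave 0 of 9 beside 3.07% of 15143 genes, and LPS-Heroin against Saline-Saline gave 0 of 9 beside 5.43% of 15134 genes. At such shares fewer than 1 of 9 genes would be expected to pass. In all tests limma-trend on log2(FPKM + 0.1) was used, and fold changes are on that scale. With Benjamini-Hochberg adjustment 0 genes reached 0.05 in these 3 comparisons, by limma-trend with the main settings or by voom on recovered reads, while 1002, 995 and 1704 genes had an unadjusted p of at most 0.05. Over the alternative settings at most 7, 5 and 2 genes reached an adjusted p of 0.05, respectively, with 0 members among them.

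Nrxn3, a presynaptic neurexin, was the only member past an unadjusted p of 0.05 in LPS-Heroin against Saline-Saline, where 11.3% of genes passed that limit. Its 4 LPS-Heroin libraries read 32.0, 36.5, 42.0 and 33.0 FPKM, and its Saline-Saline libraries 42.9, 40.6, 47.0 and 38.3 FPKM. LPS-Saline stood at 37.7, 41.6, 49.5 and 42.4 FPKM and Saline-Heroin at 38.0, 41.6, 33.7 and 43.8 FPKM. In 3 of 4 LPS-Heroin rats the value lay below all Saline-Saline and LPS-Saline rats, whereas the rat at 42.0 FPKM lay within both ranges, and Saline-Heroin overlapped LPS-Heroin. The log2 difference from Saline-Saline was -0.24 (95% interval -0.46 to -0.02), with an adjusted p of 0.409 by limma-trend and an unadjusted p of 0.0857 by the two-sided exact permutation test. Leaving out any of 6 of the 8 libraries took the unadjusted p over 0.05, with differences between -0.32 and -0.19 over all single omissions.

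The same gene gave -0.26 (-0.50 to -0.01) in LPS-Heroin against LPS-Saline, with an adjusted p of 0.977. There 4.6% of genes passed the unadjusted p alone and 2.29% of 15069 both limits, and again no member passed both. Averaged over rats with and without LPS, heroin injection gave a Nrxn3 difference of -0.18 (-0.34 to -0.02, adjusted p = 0.586), with 8.11% of 15113 genes past the unadjusted p and 2.46% past both limits. These comparisons share libraries and are not independent. The mean of the cortical glutamatergic marker list (9 of its 10 genes used, none at 0 in any library) ran from 3.06 to 3.39 in LPS-Heroin, from 1.73 to 2.93 in Saline-Saline and from 1.76 to 3.31 in LPS-Saline, in log2(FPKM + 0.1). The septum and ventral forebrain list (8 of 8 genes) ran from 1.56 to 2.74 in LPS-Heroin, from 2.39 to 3.84 in Saline-Saline and from 2.02 to 2.91 in LPS-Saline, with a difference of LPS-Heroin from Saline-Saline of -0.99 and overlap (exact permutation p = 0.0857). The part of either list in the Nrxn3 difference was not tested.

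Nlgn2, the inhibitory neuroligin, differed little between injected groups, and its small spread made small differences visible. LPS-Heroin libraries read 58.1, 56.6, 57.4 and 54.7 FPKM and Saline-Heroin libraries 59.5, 62.0, 58.7 and 61.6 FPKM. The groups did not overlap, as for 2.37% of genes in that comparison, and the exact permutation p was 0.0286, the smallest that 4 against 4 allows. The difference was -0.09 on the log2 scale (-0.20 to 0.01) with an unadjusted p of 0.0779 and an adjusted p near 1 by limma-trend. No member passed both limits in LPS-Heroin against Saline-Heroin, where 2.2% of 15121 genes did. Over both heroin arms the Nlgn2 difference with LPS was -0.07 (-0.14 to -0.00, adjusted p = 0.730), beside 6.67% of genes past the unadjusted p and 1.77% past both limits.

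For Lrrtm2, which binds neurexins from the postsynaptic side, LPS-Saline libraries read 19.1, 19.8, 17.6 and 15.1 FPKM against 16.2, 15.2, 15.7 and 14.6 FPKM in Saline-Saline. The highest 3 LPS-Saline values lay above all Saline-Saline values and the fourth among them. The log2 difference was 0.20 (-0.00 to 0.41) with an adjusted p of 0.746. It did not reach the unadjusted limit. Whether LPS changed the heroin difference was tested as an interaction, in which 0 of 9 members and 2.31% of 15113 genes passed both limits. Interaction values ran from -0.27 (Lrrtm4) to 0.07 (Lrrtm1). The widest 95% interval among members reached 0.39 to either side in LPS-Saline against Saline-Saline (Nlgn1) and the narrowest 0.13 (Nlgn2), so changes of the size of the fold limit remain possible for Nlgn1 but not within the interval of Nlgn2.

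In self-administration, Heroin-SA was set against Saline-SA to ask what voluntary intake changes. Again 0 of 9 members passed, beside 5.45% of 15024 genes. Differences ran from -0.09 (Nrxn3) to 0.25 (Lrrtm3), and the lowest unadjusted p was that of Lrrtm2 at 0.128. Lrrtm2 libraries read 11.8, 12.9, 10.8 and 11.9 FPKM in Heroin-SA and 11.3, 10.4, 11.5 and 8.20 FPKM in Saline-SA. The log2 difference was 0.20 (-0.07 to 0.47), and the groups overlapped. The self-administered less the injected heroin difference passed in 0 of 9 members, beside 4.38% of 15151 genes, and its lowest unadjusted p was that of Nlgn2 (-0.14, interval -0.30 to 0.02).

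**Figure D2:**
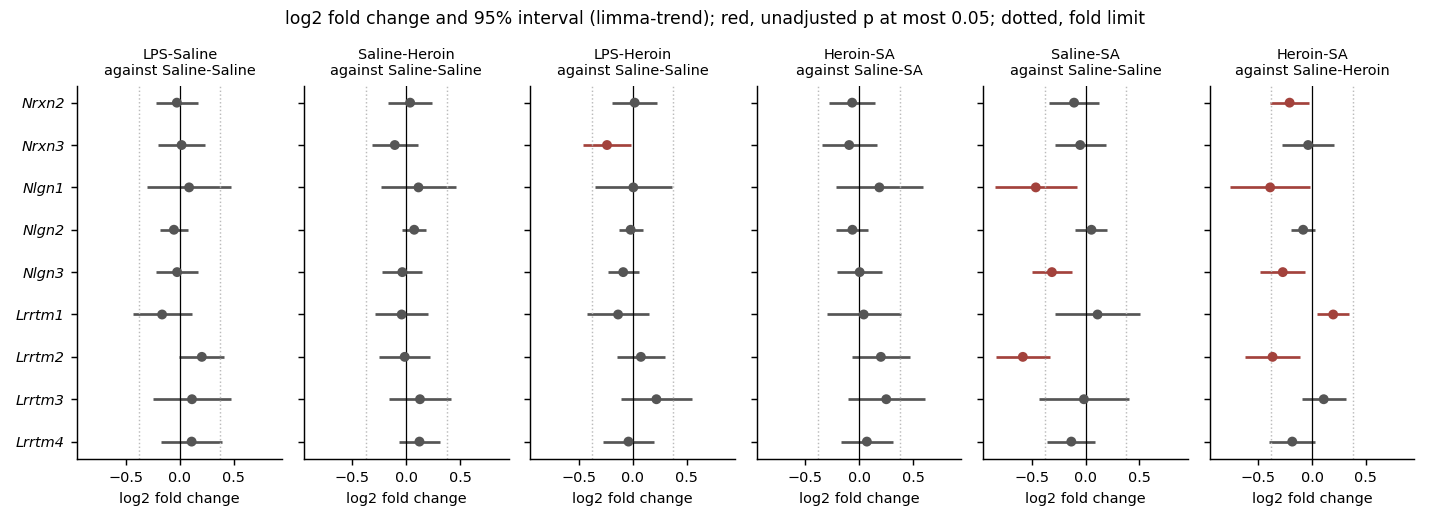
log2 fold change (points) with its 95% interval (lines) from limma-trend for the 9 genes in 6 comparisons; red marks an unadjusted p of at most 0.05 and dotted lines the limit of 1.3-fold. Red marks 1 gene in the 4 treatment panels (Nrxn3, -0.24) and in 3 and 5 genes in the panels on the right, which cross the experiments.

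The members differed more between the experiments than between treatments. Saline-SA against Saline-Saline, rats that took no drug in either experiment, gave 2 of 9 members past both limits, Lrrtm2 and Nlgn1, both lower in Saline-SA. Across 15150 genes 22.8% passed both limits, so 2 of 9 is close to the background and is not read as particular to these genes. By the unadjusted p alone 3 of 9 members passed, beside 37% of genes, and by the adjusted p 2 of 9, Lrrtm2 and Nlgn3, beside 23.7%. That last count ran from 1 to 3 over the 18 alternatives, being 1 with equal medians, without Saline-Saline replicate 1, 3 or 4 and without Saline-SA replicate 3, and 3 with voom and with all 24 libraries in one fit. The median of the 9 log2 differences was -0.11, against 0.01 over all genes tested.

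Lrrtm2 was lower in every SA rat than in every injected rat. All 16 injection libraries lay between 13.3 and 19.8 FPKM, and the 8 SA libraries between 8.20 and 12.9 FPKM. The share of all genes that separate the experiments in this way was not counted, so it is not read as particular to Lrrtm2. Between Saline-SA and Saline-Saline 28.3% of genes did not overlap, and between Heroin-SA and Saline-Heroin 23%. The Lrrtm2 means were 15.4 ± 0.684 FPKM in Saline-Saline and 10.4 ± 1.52 FPKM in Saline-SA (SD, n = 4 each). The log2 difference was -0.58 (-0.84 to -0.33) with an adjusted p of 0.00723 by limma-trend and an unadjusted exact permutation p of 0.0286, the smallest possible. It stayed past an adjusted p of 0.05 under all 18 alternatives, between -0.65 and -0.48. Ctnna1, the gene whose span holds Lrrtm2 on the other strand, had means of 27.8 ± 1.15 FPKM in Saline-SA and 32.3 ± 2.12 FPKM in Saline-Saline, a log2 difference of -0.21 (adjusted p = 0.0473).

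Nlgn3, the neuroligin of both synapse types, read 31.4, 30.6, 26.4 and 28.1 FPKM in Saline-SA and 35.8, 32.5, 38.7 and 37.9 FPKM in Saline-Saline. These groups did not overlap, as was the case for 2 of 9 members (Nlgn3 and Lrrtm2) and 28.3% of all genes. The log2 difference was -0.31 (-0.50 to -0.13), smaller than the fold limit, with an adjusted p of 0.0241 by limma-trend. It stayed past the unadjusted p under all 18 alternatives but past the adjusted p in 12 of them. Among those that lost it were equal medians and the fits without Saline-Saline replicate 1, 3 or 4 or Saline-SA replicate 3, and the highest adjusted p of limma-trend over the alternatives was 0.0668.

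For Nlgn1, the excitatory neuroligin, Saline-SA read 10.2, 10.1, 13.1 and 9.71 FPKM against 13.3, 12.2, 20.7 and 14.2 FPKM in Saline-Saline. The highest value of each group stood well above its other 3, and the groups overlapped. The log2 difference was -0.46 (-0.85 to -0.08), with an adjusted p of 0.0788 by limma-trend and an exact permutation p of 0.0571. Without Saline-SA replicate 1, 2 or 4 the unadjusted p exceeded 0.05, and the differences over all alternatives ran from -0.56 to -0.30. Nlgn2 gave 0.05 (-0.10 to 0.20) in the same comparison, and the neurexins gave -0.11 (Nrxn2) and -0.05 (Nrxn3), none past the test. Lrrtm1 gave 0.11, Lrrtm3 -0.02 and Lrrtm4 -0.13.

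Heroin-SA against Saline-Heroin makes the same contrast of experiments in the other 8 libraries, with heroin in both groups. This comparison was added after the values had been seen. Lrrtm2 gave -0.37 (-0.63 to -0.11, adjusted p = 0.0613 by limma-trend), just under the fold limit, while Ctnna1 gave 0.06 (adjusted p = 0.670). Nlgn3 gave -0.27 (-0.48 to -0.06) and Lrrtm1 0.20 (0.05 to 0.35), with adjusted p-values of 0.0784 and 0.0809. In Lrrtm2, Nlgn3 and Lrrtm1 the groups did not overlap, 3 of 9 members beside 23% of genes.

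Nlgn1 gave -0.39 (-0.76 to -0.02, adjusted p = 0.139) and was the 1 member of 9 past both limits, where 17.4% of 15099 genes passed. Nrxn2 gave -0.21 (-0.39 to -0.03, adjusted p = 0.115), so that 5 of 9 members passed the unadjusted p alone, beside 31.9% of genes. Nlgn1 lost its unadjusted p of 0.05 with equal medians and without any Saline-Heroin library or Heroin-SA replicate 1, 2 or 3, with differences from -0.55 to -0.28 over the 18 alternatives. Heroin doses, route and duration differ between these groups as well.

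The ratio of Lrrtm1 to Lrrtm2 differed between the experiments, and a ratio within a library does not depend on library size. Between the saline groups Lrrtm2 gave -0.58 and Lrrtm1 0.11 (adjusted p = 0.692 by limma-trend). The ratio there largely restates the Lrrtm2 difference. The ratios were chosen after the values had been seen, and 4 ratios were compared in 8 pairs of groups. How often ratios of other gene pairs separate the experiments was not counted, so a lack of overlap is not read as particular to these pairs. The ratio of Lrrtm1 to Lrrtm2 FPKM averaged 1.38 ± 0.225 in Saline-Saline and 2.22 ± 0.185 in Saline-SA (SD). In all 16 injected rats it lay between 0.947 and 1.69, and in all 8 SA rats between 1.95 and 2.45, without overlap. It was 1.62-fold higher in Saline-SA than in Saline-Saline and 1.48-fold higher in Heroin-SA than in Saline-Heroin, each with an exact permutation p of 0.0286, the smallest possible, and an adjusted p of 0.229 over the 32 tests.

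The ratio of Nlgn2 to Nlgn1, the inhibitory over the excitatory neuroligin, averaged 3.94 in Saline-Saline (2.88 to 4.45) and 5.62 in Saline-SA (4.66 to 6.68). These saline groups did not overlap (1.43-fold, exact permutation p = 0.0286, adjusted p = 0.229). The Nlgn1 model is only an annotated piece, so the ratio is compared between groups and not read as a balance of transcripts. In Heroin-SA the Nlgn2 to Nlgn1 ratio averaged 4.78 ± 1.04 and in Saline-Heroin 3.78 ± 0.274, and there the groups overlapped (1.24-fold, exact permutation p = 0.171). Nlgn2 to Nlgn3 gave 1.59 ± 0.0780 in Saline-Saline and 2.07 ± 0.284 in Saline-SA, without overlap (1.29-fold, exact permutation p = 0.0286, adjusted p = 0.229). In Heroin-SA that ratio was 1.96 ± 0.157 and in Saline-Heroin 1.72 ± 0.164, with overlap (1.14-fold, exact permutation p = 0.114). Nlgn2 itself gave a log2 difference of 0.05 between the saline groups, so both ratios largely restate the Nlgn1 and Nlgn3 differences. Among treatments within an experiment no ratio separated its groups. The smallest exact permutation p was 0.0571 (adjusted p = 0.305), for Lrrtm1 to Lrrtm2 in LPS-Saline against Saline-Saline (0.773-fold) and in Heroin-SA against Saline-SA (0.895-fold).

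**Figure D3:**
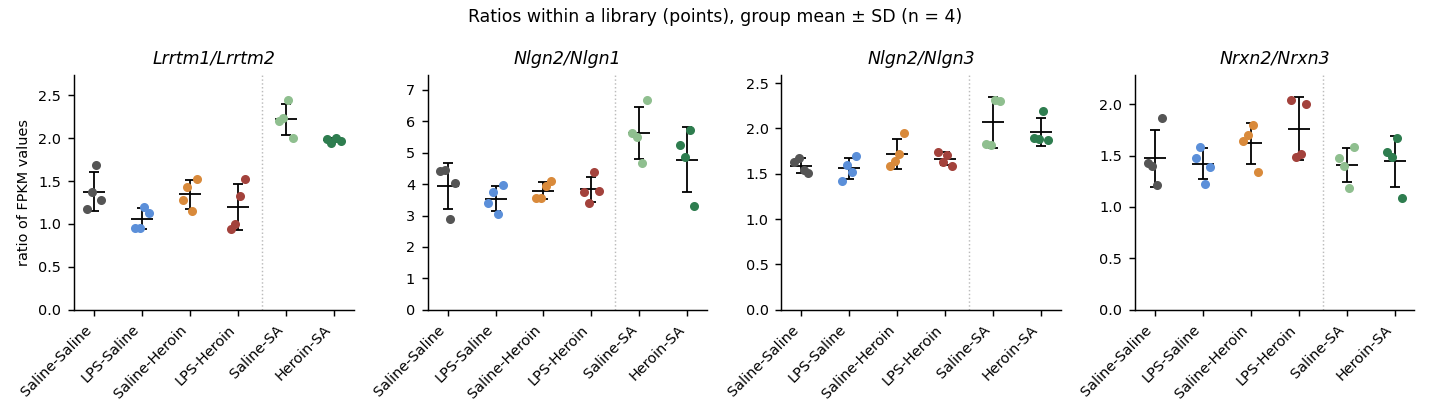
Ratio of the FPKM of named pairs of genes in each of the 24 libraries (points) with the group mean ± SD of 4; axes are linear from 0 and the dotted line separates the experiments. The Lrrtm1/Lrrtm2 points of the SA groups lie between 1.95 and 2.45, above all injected rats, while Nrxn2/Nrxn3 overlaps throughout.

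Other measures moved with the experiment too. Mitochondrial genes took 6.82% to 9.10% of reads in injected rats and 10.0% to 15.9% in SA rats. The microglial list (all 8 genes used) ran from 3.78 to 4.22 in Saline-Saline and from 3.39 to 3.66 in Saline-SA, in mean log2(FPKM + 0.1). The endothelial list (5 of 7 genes used) ran from 2.87 to 2.98 and from 3.06 to 3.40, respectively. Astrocyte values (8 of 8 genes) ran from 5.42 to 5.83 and from 5.17 to 5.51, oligodendrocyte values (8 of 8) from 8.23 to 8.83 and from 8.05 to 8.26, and those of medium spiny neurons (12 of 12) from 5.93 to 6.86 and from 6.46 to 7.16. No gene of these lists was at 0 in any library. Their part in the differences of Lrrtm2, Nlgn3 and Nlgn1 was not tested.

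Partners of the members were read from 4 lists. The lists were chosen with earlier results of these data known, so their shares beside all genes are descriptions and not read as enrichment. Neurexin ligands other than the members (13 tested) include secreted cerebellins, C1q-like proteins and neurexophilins. In LPS-Heroin against Saline-Saline 3 passed upward and 1 downward, 30.8% beside 5.43% of all genes, with a median difference of -0.02. C1ql3 was higher (57.7 ± 24 against 22.3 ± 8.36 FPKM, log2 1.32), as was Igsf21, a neurexin 2 ligand of inhibitory synapses (39.3 ± 1.46 against 27.3 ± 7.87 FPKM, log2 0.57), and Cbln4 was lower (3.13 ± 1.38 against 5.09 ± 0.729 FPKM, log2 -0.76). Their adjusted p-values by limma-trend were 0.231, 0.283 and 0.320. C1ql3 was also higher in LPS-Saline (41.4 ± 15.8 FPKM, log2 0.88, adjusted p = 0.728). In Saline-Heroin C1ql3 averaged 46.0 ± 28.1 FPKM without passing, so a mean above Saline-Saline was not confined to the LPS groups. In LPS-Saline against Saline-Saline 1 ligand passed upward and 2 downward, Cbln1 (-1.21) and Cbln4 (-0.40), 23.1% beside 2.37% of all genes. Cbln1 averaged 1.24 ± 0.329 against a scattered 3.63 ± 2.96 FPKM, and Cbln4 3.86 ± 0.805 against 5.09 ± 0.729 FPKM. Their adjusted p-values were 0.729 and 0.736. Cbln1 alone passed in LPS-Heroin against LPS-Saline, where it was higher (0.60, adjusted p = 0.977), 7.69% beside 2.29% of all genes. The comparisons with Saline-Saline share its libraries, and the cortical marker list, which ran higher in LPS-Heroin without overlap (exact permutation p = 0.0286), was not tested for its part in them, nor was the septum list.

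In LPS-Heroin against Saline-Heroin 4 of 13 neurexin ligands passed, all higher (30.8% beside 2.2% of all genes). Igsf21 (log2 0.44), Nxph3 (1.19) and Nxph4 (0.55) led, with adjusted p-values near 1. Nxph3 averaged 61.5 ± 13.1 FPKM in LPS-Heroin, 29.9 ± 16.2 FPKM in Saline-Heroin and 36.6 ± 25.0 FPKM in Saline-Saline. Nxph4 was the only ligand that passed in Saline-Heroin against Saline-Saline (7.69% beside 3.07% of all genes), where it was lower (log2 -0.63, adjusted p = 0.750). It averaged 16.9 ± 5.26 FPKM in Saline-Saline, 10.8 ± 2.69 FPKM in Saline-Heroin and 15.6 ± 1.67 FPKM in LPS-Heroin. Both Nxph4 calls rest on the same Saline-Heroin libraries. In Heroin-SA against Saline-SA only C1ql1 passed (13.9 ± 1.83 against 19.8 ± 2.94 FPKM, log2 -0.51, adjusted p = 0.331), 7.69% beside 5.45% of all genes.

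Of 11 regulators of neuroligins and LRRTM proteins tested, 1 passed in LPS-Heroin against Saline-Saline (9.09% beside 5.43% of all genes) and 1 in Heroin-SA against Saline-SA (9.09% beside 5.45%). Khdrbs3, an RNA-binding protein that steers neurexin splicing, was higher in LPS-Heroin than in Saline-Saline (log2 0.44, adjusted p = 0.231). Adam10, a protease that cleaves neuroligins, was higher in Heroin-SA than in Saline-SA (15.3 ± 2.44 against 11.2 ± 1.48 FPKM, log2 0.44, adjusted p = 0.344). In Saline-Saline Adam10 averaged 16.7 ± 1.13 FPKM. Its call in Heroin-SA and its lower call in Saline-SA against Saline-Saline rest on the same Saline-SA libraries. Adam17, also a protease, passed in the self-administered less the injected heroin difference (0.47, adjusted p = 0.691; 9.09% beside 4.38% of all genes). Among 10 cytoplasmic partners 0 passed in the 3 comparisons with Saline-Saline. Lin7a, with a mean of 55.7 reads, passed in LPS-Heroin against Saline-Heroin (-0.62, adjusted p near 1), 10% beside 2.2% of all genes. It also passed in Heroin-SA against Saline-SA (0.71, adjusted p = 0.410), 10% beside 5.45%.

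Of 41 other trans-synaptic adhesion genes, 4 passed upward and 1 downward in LPS-Heroin against Saline-Saline (12.2% beside 5.43% of all genes). Elfn1, a postsynaptic ligand of metabotropic glutamate receptors, was lower there (8.01 ± 1.21 against 11.6 ± 2.20 FPKM, log2 -0.53, adjusted p = 0.260). Nptx1, a secreted pentraxin that gathers AMPA receptors, was higher (log2 0.81, adjusted p = 0.270), and so was Clstn2 (0.55). In Saline-Heroin against Saline-Saline 2 were higher and 1 lower (7.32% beside 3.07%), Nptxr (0.87), Il1rapl1 (0.42) and Elfn1 (-0.50). In Heroin-SA against Saline-SA 3 were higher and 0 lower (7.32% beside 5.45%), led by Cadm2 (12.9 ± 1.20 against 9.07 ± 1.01 FPKM, log2 0.51, adjusted p = 0.255) and Il1rap (0.58). Cadm2 and Il1rap were also lower in Saline-SA than in Saline-Saline, so these calls rest on the same Saline-SA libraries as those between the experiments.

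Between the saline groups of the experiments most calls in the 4 lists were lower in Saline-SA, as they were over all genes, with 1283 higher and 2165 lower. Of the other trans-synaptic genes 2 were higher and 14 lower (39% beside 22.8% of all genes), with a median of -0.20. Cadm2 (9.07 ± 1.01 against 19.6 ± 1.54 FPKM), Il1rap (3.52 ± 0.95 against 10.0 ± 1.03 FPKM) and Cadm1 (16.6 ± 2.97 against 36.7 ± 5.50 FPKM) led, with log2 differences of -1.11, -1.52 and -1.14 and adjusted p-values of 0.000277, 0.00114 and 0.00157 by limma-trend. Among cytoplasmic partners 4 of 10 were lower and 0 higher (40%), led by Apba1 (Mint1, log2 -0.70), Cask (-1.42) and Lin7c (-0.61), whose proteins form a complex under neurexins, with adjusted p-values from 0.000829 to 0.00982.

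Regulators gave 3 lower of 11 in the same comparison (27.3% beside 22.8% of all genes): Adam10 (log2 -0.58), Mdga2 (-0.77) and Mdga1 (-0.73), the MDGA proteins being known to mask neuroligins from neurexins. Of the neurexin ligands 2 of 13 (15.4%) were lower, Clstn3 (73.5 ± 7.49 against 124 ± 7.26 FPKM, log2 -0.76, adjusted p = 0.00059) and C1ql3 (-1.01, adjusted p = 0.129). In Heroin-SA against Saline-Heroin Clstn3 gave -0.64, Cask -1.37 and Il1rap -0.88. The list counts there were 1 higher and 2 lower of 13 ligands (23.1%), 2 lower of 11 regulators (18.2%), 3 lower of 10 cytoplasmic partners (30%) and 1 higher and 11 lower of 41 other genes (29.3%), beside 17.4% of all genes, 1040 higher and 1589 lower.

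Within groups the members showed no pairing that passed correction. For all 36 pairs the deviations of log2(FPKM + 0.1) from the group means were correlated over the 24 libraries. Pearson's r was above 0 in 18 pairs and below 0 in 18, from -0.56 to 0.69, with a median of 0.06. The largest was that of Lrrtm1 with Lrrtm3 (r = 0.69, permutation p = 0.00459, adjusted p = 0.0922; rho = 0.61, permutation p = 0.010, adjusted p = 0.164). Without the 2 libraries farthest from the Lrrtm1 median r was 0.55, and it was 0.69 within the injection and 0.72 within the SA libraries. Nlgn1 with Lrrtm3 gave r = 0.60 (permutation p = 0.00512, adjusted p = 0.0922; rho = 0.49, permutation p = 0.0290, adjusted p = 0.164), or 0.51 without the 2 farthest. The lowest was Nrxn2 with Lrrtm3 (r = -0.56, permutation p = 0.0184, adjusted p = 0.131; rho = -0.51, permutation p = 0.0306, adjusted p = 0.164). No pair reached an adjusted p of 0.05 by either measure.

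**Figure D4:**
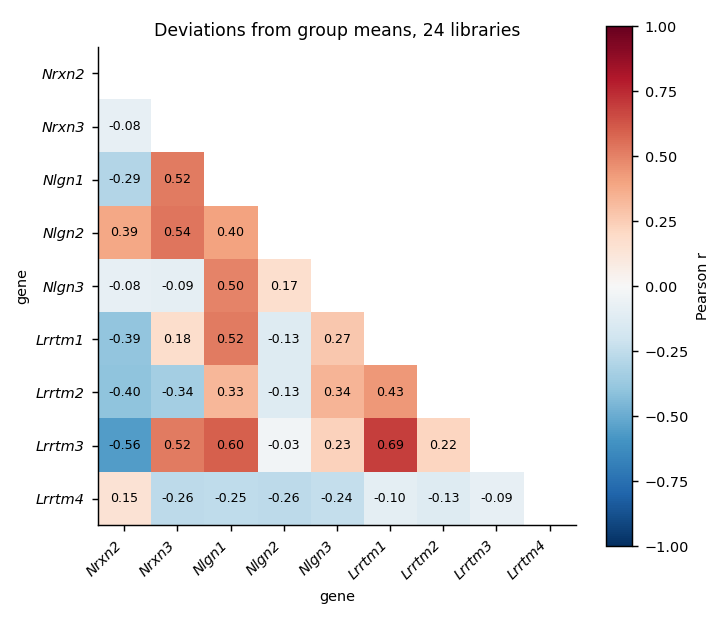
Pearson's r (colour and number, scale from -1 to 1) between each pair of the 9 genes, from the deviations of log2(FPKM + 0.1) from the group means in 24 libraries. Lrrtm1 with Lrrtm3 stands highest at 0.69 and Nrxn2 with Lrrtm3 lowest at -0.56, and no pair passed correction over the 36.

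For each member the gene outside the 9 with the most similar pattern was found by Pearson's r of log2(FPKM + 0.1) over the 24 libraries, among 13863 genes. This is a description, and the libraries share depth, dissection and experiment. Lrrtm2 ran most like Atp8a2 (r = 0.94, or 0.78 after group means were removed), Nlgn1 like 5330417C22Rik (0.92 and 0.85) and Nlgn3 like Gatsl2 (0.91 and 0.83). Lrrtm1 ran most like Tmem158 (0.89 and 0.88) and Lrrtm3 like Cacna2d3, a calcium channel subunit (0.85 and 0.88). Nrxn3 ran most like Gbx2 (0.84 and 0.78), Nrxn2 like Ccdc136 (0.77 and 0.69), Nlgn2 like Sept1 (0.76 and 0.77) and Lrrtm4 like Camk2d, a subunit of calmodulin-dependent kinase II (0.74 and 0.64).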

How the data were processed

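RNA of the NAc was measured by RNA-seq in 24 libraries, taken as 4 rats per group from the labels. The paper's methods give a larger number per group, and the 4 held here were used. The methods place the heroin injections days after the last LPS injection and the labels a week after. Polyadenylated RNA was made into directional libraries. Per the submitters' processing notes, fastp, HISAT2 and featureCounts were used on rn6; versions and strand setting are not given in the sources used here. The authors deposited FPKM values, which were whole multiples of 1 read in 100% of cases (tolerance 0.1 read), so reads were recovered for depth (12312878 to 18850240 per library) and for a voom alternative. The file lists Lrrtm1 as LRRTM1.

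Each comparison was fitted by limma-trend (limma 3.58.1, R 4.3.3) on log2(FPKM + 0.1) in the groups compared, for genes whose FPKM averaged 0.5 or more, with Benjamini-Hochberg adjustment over all genes tested. All 9 members passed this filter in every comparison. Tests on simulated data recovered the fold changes put in, by the median over the changed genes. The simulated scatter between libraries was set alike for all genes, so these tests do not show whether the smaller member differences would be detected. The study's methods also name an adjusted p for differential expression, from a count model not used here. By the adjusted p of limma-trend 0 members passed 0.05 in the treatment comparisons. Exact permutation tests were two-sided, over 70 arrangements, with 0.0286 as the smallest p. Correlations were permuted within groups 100000 times (numpy 2.4.6, SciPy 1.17.1). Named genes were all members, up to 3 passing genes with the smallest p per list and comparison, and the gene most like each member. The members and lists were chosen with earlier results of these data known. Alternatives were other pseudocounts, filters, scalings, moderation and tests, the replicate block and each library left out.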

Additional observations from a re-analysis of the deposited data

Results flagged for a closer look

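Of 54 sets of 4 libraries (9 genes in 6 groups), 5 had a library far from the other 3, by a gap to the nearest of them that exceeds Dixon's limit for 4 values, where chance gives about 1 in 20. Nrxn3 was high in Heroin-SA replicate 4 (45 FPKM, the others 35.7 to 36.6, gap 0.906 of the group's range). Nlgn1 was high in Saline-SA replicate 3 (13.1 FPKM, the others 9.71 to 10.2, gap 0.861), which belongs to a group of the Nlgn1 difference between experiments. Nlgn3 was low in Heroin-SA replicate 3 (25.1 FPKM, the others 30.3 to 31.2, gap 0.842). Lrrtm1 was high in LPS-Heroin replicate 4 (22.9 FPKM, the others 17.8 to 18.5, gap 0.850), and Lrrtm4 in Saline-Heroin replicate 1 (10.5 FPKM, the others 9.23 to 9.30, gap 0.943). The cause was not tested.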

How the results depend on the processing

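Of the 108 differences of members over all comparisons, 72 kept their sign under every alternative run, and 36, none past an unadjusted p of 0.05, took the other sign under at least 1. These include Nrxn3 (-0.05), Nlgn2 (0.05) and Lrrtm3 (-0.02) in Saline-SA against Saline-Saline and Lrrtm1 (0.07) in the interaction. The counts of members past both limits stayed at 0 in the 10 comparisons of treatments, except that without the fold limit 1 member passed in LPS-Heroin against Saline-Saline, in LPS-Heroin against LPS-Saline, with LPS over both heroin arms and with heroin over both LPS arms. In Saline-SA against Saline-Saline the count of 2 fell to 1 without Saline-Saline replicate 3 or Saline-SA replicate 1, 2 or 4 (range 1 to 2). In Heroin-SA against Saline-Heroin, added after the data were seen, the count of 1 became 0 with a pseudocount of 1, quantile normalization or equal medians, 2 with voom, 5 without the fold limit and 0 to 1 with a library left out (0 without Saline-Heroin replicate 1 or 3 or Heroin-SA replicate 1 or 3). The cause was not tested. An unadjusted p of at most 0.05 was lost in 7 of 18 alternatives for Nrxn3 in LPS-Heroin against LPS-Saline, in 5 of 26 for Nrxn3 with heroin over both LPS arms, in 10 of 26 for Nlgn2 with LPS over both heroin arms, and, in Heroin-SA against Saline-Heroin, in 5 of 18 for Nrxn2, 3 of 18 for Lrrtm1 and 0 of 18 for Lrrtm2 and Nlgn3.

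Replicate numbers did not pair the libraries: 0 of 15 pairs of groups had every correlation of same-numbered deviations over 0.1 (all correlations -0.190 to 0.154). With the replicate block the count of members stayed 0 in the 10 treatment comparisons, 2 in Saline-SA against Saline-Saline and 1 in Heroin-SA against Saline-Heroin, and Nlgn2 with LPS over both heroin arms (-0.07) no longer passed the unadjusted p, nor Nlgn3 in Saline-SA against Saline-Saline the adjusted p.

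Over all genes, the count past both limits moved by over 1.5 times without the filter on mean FPKM in LPS-Saline against Saline-Saline (358 to 582), LPS-Heroin against LPS-Saline (345 to 548), LPS-Heroin against Saline-Heroin (332 to 524), LPS over both heroin arms (267 to 516), heroin over both LPS arms (372 to 628) and the interaction (349 to 565). It also moved without LPS-Saline replicate 3 (358 to 625 against Saline-Saline and 267 to 423 over both arms), without Saline-Heroin replicate 2 (465 to 727) and without Heroin-SA replicate 3 in the difference of heroin effects (664 to 1001). Nlgn1, at 237 to 570 reads a library, had the fewest reads of the members, and counting error is largest there.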
